A study of Mus musculus with 10 samples.

Results

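The insulin and IGF receptor signalling chain was followed through 9 genes, from the ligand Igf1 through the receptors Insr and Igf1r, the adaptors Irs1 and Irs2, and the phosphoinositide 3-kinase (PI3K) subunits Pik3ca and Pik3r1, to the kinases Akt1 and Akt2. They were taken by gene symbol (GENCODE vM21) from the 55335 genes of the deposited table, and all 9 were present. RNA-seq had been made from hearts of male wild-type mice whose mothers were given anti-Müllerian hormone (AMH) in pregnancy (PAMH, 5 samples) or the vehicle, phosphate-buffered saline (control, 5 samples). Prenatal AMH is used as a model of polycystic ovary syndrome, and the question was how the hearts of the male offspring differ. Age, strain, dam and litter are not given in the labels, so each p-value speaks only of the spread among these 10 samples, and part of that spread may be technical or shared within a litter.

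Insulin and IGF1 bind receptor tyrosine kinases that phosphorylate the IRS adaptors. The phosphorylated adaptors recruit PI3K, whose lipid product brings Akt to the membrane, where it is activated. In cardiac muscle this chain controls glucose uptake, cell growth and protein turnover, and Akt keeps the FoxO transcription factors out of the nucleus.

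Values are FPKM (fragments scaled by transcript length and by the number of mapped fragments). The 9439 genes that averaged 1 FPKM or more were tested with limma on log2(FPKM + 1), and a gene was called at a Benjamini-Hochberg adjusted p below 0.05. FPKM sums ran from 654350 to 717453 per sample. Genes of the mitochondrial genome made up 55.3% to 56.8% of the sum in control and 51.5% to 56.6% in PAMH samples. From the spacing of low values, the depth of the control samples was 70.7% to 100% of that of the deepest sample, and the depth of the PAMH samples 59.2% to 75.5%. In PAMH replicate 4 only 53 values lay on the spacing, against 249 to 593 in the other samples, so its depth is the least certain. All 8 cardiomyocyte markers passed the expression filter and none was called, with 3 at an unadjusted p below 0.05, against 24.0% of all tested genes. They summed to 10054 to 12541 FPKM in control and 8887 to 14786 in PAMH samples, while the 3 liver markers summed to at most 0.658 FPKM. Smooth muscle markers summed to 76.6 to 116 FPKM in control and 128 to 172 in PAMH samples (1 of 5 tested rose). The separation of the sums came from Acta2, which rose from 32.1 to 82.5 FPKM, while the other 5 markers had PAMH means at 96.9% to 111% of control. Macrophage markers summed to 90.4 to 105 FPKM in control and 104 to 122 in PAMH samples. Of 8 tested, only Cd68 was called, and it rose, while 5 were at an unadjusted p below 0.05, against 24.0% of all tested genes. Of these 5, Cd68, C1qa, C1qb and Lyve1 had PAMH means at 149%, 116%, 115% and 121% of control. The fifth, Cd163, was at 68.6% (3.56 and 2.45 FPKM, adjusted p = 0.0741). Adgre1, Csf1r and Mrc1 were at 94.2%, 97.7% and 108%. Mesothelial markers summed to 0.377 to 0.937 and 2.06 to 4.52 FPKM, and Upk3b, the only one of 3 tested, rose from 0.293 to 2.04 FPKM (adjusted p = 0.00190). The part of these cell types in the results was not tested. PAMH replicate 4 stood apart. Its erythroid markers summed to 863 FPKM, against 97.3 to 250.1 in the other PAMH samples and 112 to 437 in control samples. The median deviation of its long transcripts (at least 6000 bases) from the mean over samples was 0.32 lower, on the log2 scale, than that of its short ones (at most 2000 bases). This difference was -0.14 in PAMH replicate 5 and between -0.03 and 0.15 in the other 8 samples. The longest transcripts of Igf1r, Insr, Irs1, Pik3ca, Pik3r1, Igf1 and Irs2 measure 6323 to 11409 bases, and those of Akt2 and Akt1 measure 4544 and 2690. The part of transcript length in the results was not tested beyond the values given beside them.

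None of the 7 tested chain genes was called by limma, against 6.19% of all tested genes (4.95% higher and 1.24% lower in PAMH). At an unadjusted p below 0.05 there were 4 of 7 (Insr, Irs1, Pik3r1 and Akt1), against 24.0% of all tested genes. Igf1r and Igf1 lay below the expression filter. In 2 of the 7, Insr and Irs1, every PAMH sample lay below every control sample, a pattern found in 1.71% of all tested genes, and the groups were separate in 8.44%, with PAMH above in 6.74%. The median log2 fold change of the 7 was 0.01, against 0.07 over all tested genes.

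**Figure D1:**
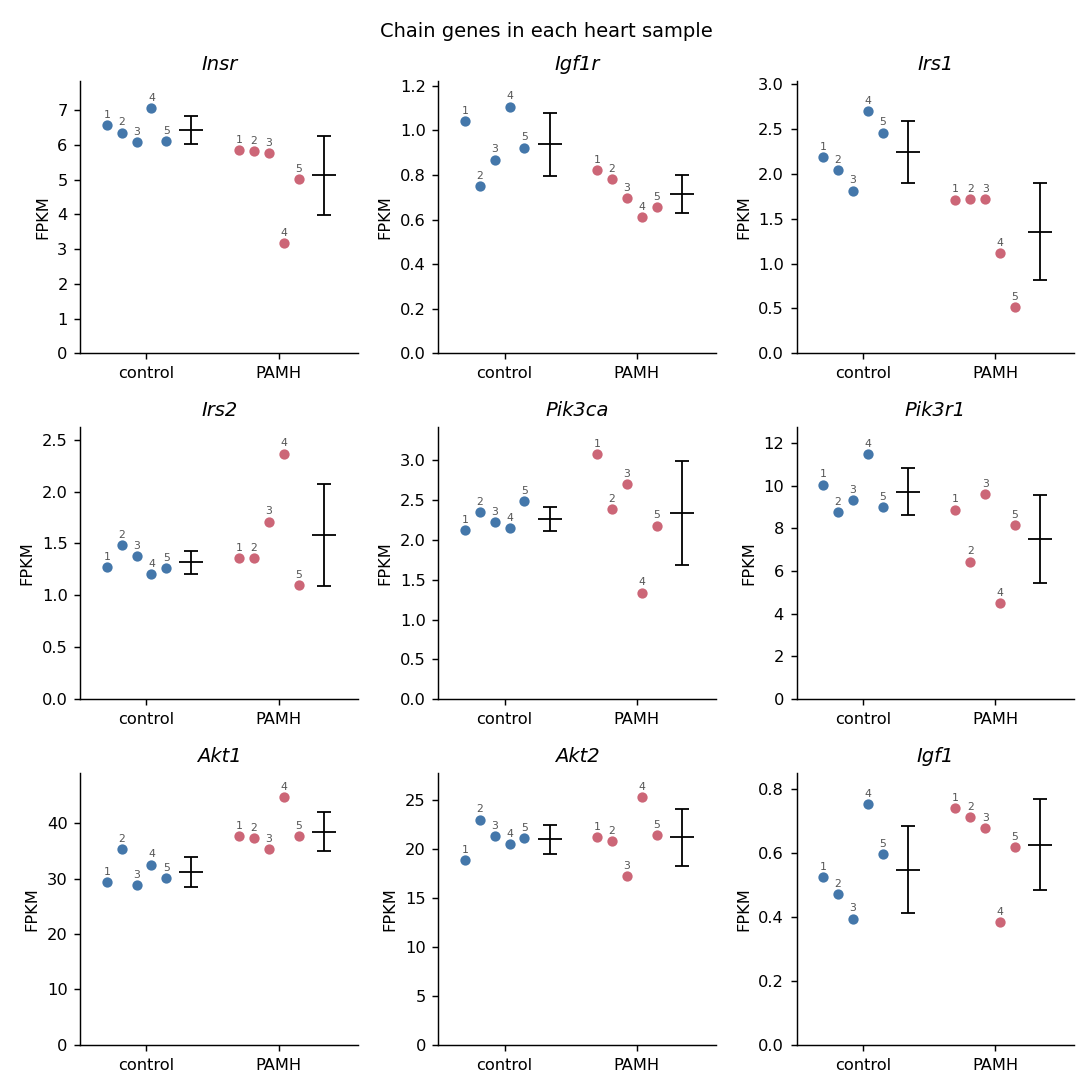
FPKM of the 9 chain genes in each heart sample (y axis, linear from 0), with control in blue and PAMH in red; small numbers are replicate numbers, and the bar and whiskers to the right of each group are its mean and SD (n = 5). The PAMH points of Insr and Irs1 lie below all control points, and PAMH replicate 4 is the lowest PAMH point for Insr, Igf1r, Pik3ca, Pik3r1 and Igf1 and the highest for Irs2, Akt1 and Akt2.

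In control hearts the levels, which FPKM express per length, ran in the order Akt1, Akt2, Pik3r1, Insr, Pik3ca, Irs1, Irs2, Igf1r and Igf1. The control ranges of Pik3ca and Irs1 overlapped, as did those of Igf1r and Igf1, although Igf1r was above Igf1 in 10 of 10 samples. Irs1 was above Irs2 in 8 of 10 samples. The other neighbours in this order were separate in the control samples.

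The ligand gene Igf1 (ENSMUSG00000020053, chr10:87858265-87937042, plus strand; GRCm38 here and for all genes) encodes insulin-like growth factor 1. It stood at 0.526, 0.471, 0.395, 0.752 and 0.597 FPKM in control replicates 1 to 5, and at 0.741, 0.712, 0.677, 0.384 and 0.617 FPKM in PAMH replicates 1 to 5. The groups overlapped, with the lowest value of all in PAMH replicate 4. The means were 0.548 ± 0.136 and 0.626 ± 0.143 FPKM (SD, n = 5 each), a mean difference of 0.07 on the log2(FPKM + 1) scale, and the gene was not tested. Of 15 ligands and binding proteins, 7 were tested and limma called none, with 2 at an unadjusted p below 0.05, against 24.0% of all tested genes. The insulin genes Ins1 and Ins2 and the binding proteins Igfbp1 and Igfbp2 were listed at 0 in all 10 samples. Igf2r, the scavenging receptor for IGF2, had a mean of 10.8 ± 0.446 FPKM in control and 8.85 ± 1.32 in PAMH hearts (log2 fold change -0.27, adjusted p = 0.0945). Igfbp6, which prefers IGF2, had means of 9.82 ± 1.46 and 13.8 ± 3.43 FPKM (log2 fold change 0.43, adjusted p = 0.121).

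Insr (ENSMUSG00000005534, chr8:3122061-3279617, minus strand) encodes the insulin receptor. Its values were 6.57, 6.36, 6.07, 7.06 and 6.11 FPKM in control replicates 1 to 5. In PAMH replicates 1 to 5 they were 5.84, 5.82, 5.75, 3.17 and 5.02 FPKM. All PAMH samples were below all control samples, replicates 1 to 3 narrowly and replicate 4 by the widest margin. The PAMH mean of 5.12 ± 1.14 FPKM was 79.6% of the control mean of 6.43 ± 0.405, and the log2 fold change of -0.30 ± 0.13 (SE; 95% interval -0.58 to -0.03) did not pass the test (unadjusted p = 0.0338, adjusted p = 0.170). Without PAMH replicate 4 the log2 fold change was -0.17 (adjusted p = 0.158), and -0.20 after a fit that removed, sample by sample, the dependence on transcript length and GC content. In these bulk samples, fewer cells of a type and less RNA per cell cannot be told apart. The 6 endothelial markers, of a cell type that also carries insulin receptors, summed to 102 to 138 FPKM in control and 89.7 to 101 in PAMH samples. None of the 6 was called by limma, and in each of them the groups overlapped. The most abundant, Fabp4, had 37.6 to 60.2 FPKM in control and 29.6 to 41.9 in PAMH samples. Of 3 at an unadjusted p below 0.05, Fabp4 and Pecam1 had PAMH means at 72.6% and 84.2% of control and Emcn at 116%. The other markers, Cdh5, Kdr and Tie1, had PAMH means at 88.0%, 87.7% and 92.8% of control, so Emcn alone had the higher PAMH mean. The part of endothelial cells in the Insr values was not tested.

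Igf1r (ENSMUSG00000005533, chr7:67952827-68233668, plus strand) encodes the IGF1 receptor and was the scarcer receptor gene. It had 1.04, 0.751, 0.869, 1.11 and 0.923 FPKM in control and 0.822, 0.781, 0.697, 0.612 and 0.658 FPKM in PAMH replicates 1 to 5. The groups overlapped only through control replicate 2, which was below PAMH replicates 1 and 2. The means were 0.938 ± 0.141 and 0.714 ± 0.0865 FPKM, with a mean log2 difference of -0.18 with a pseudocount of 1 and -0.35 with a pseudocount of 0.1. The gene was tested only when the filter was dropped (adjusted p = 0.324). The Insr to Igf1r ratio within a sample was 6.95 ± 0.889 in control and 7.13 ± 1.16 in PAMH hearts, with overlapping groups. The Igf1 to Igf1r ratio was 0.582 ± 0.0976 and 0.870 ± 0.139, and the groups overlapped through PAMH replicate 4, at 0.627.

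Irs1 and Irs2 encode the main docking proteins below both receptors, and their values parted. Irs1 (ENSMUSG00000055980, chr1:82233101-82291416, minus strand) had 2.19, 2.05, 1.82, 2.70 and 2.46 FPKM in control replicates 1 to 5. Its values were 1.71, 1.72, 1.72, 1.12 and 0.514 FPKM in PAMH replicates 1 to 5. Each PAMH sample was below each control sample, with replicates 4 and 5 the lowest. The PAMH mean of 1.36 ± 0.537 FPKM was 60.5% of the control mean of 2.24 ± 0.347 (log2 fold change -0.49 ± 0.16, 95% interval -0.83 to -0.15), which did not pass after adjustment (unadjusted p = 0.00836, adjusted p = 0.0813). It was -0.34 without PAMH replicate 5 (adjusted p = 0.104), -0.25 without PAMH replicates 4 and 5 (adjusted p = 0.159), and -0.38 with the length and GC trend removed.

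The predicted gene Gm9747 overlaps Irs1 on the opposite strand, and 30.1% of the 100-base stretches of Irs1 also occur in it. It was listed at 0 in 8 samples, at 0.105 FPKM in PAMH replicate 3 and at 2.85 FPKM in PAMH replicate 5, where Irs1 was lowest. The strand setting of the authors' quantification is not given in the sources used here, so fragments of the 2 genes may not have been separated, and the part of this overlap in the Irs1 value was not tested.

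Irs2 (ENSMUSG00000038894, chr8:10984681-11008458, minus strand) had 1.27, 1.48, 1.38, 1.20 and 1.26 FPKM in control and 1.36, 1.36, 1.71, 2.37 and 1.10 FPKM in PAMH replicates 1 to 5. The groups overlapped, and PAMH replicates 3 and 4 were above all control samples. The means were 1.32 ± 0.111 and 1.58 ± 0.491 FPKM (log2 fold change 0.13 ± 0.11, 95% interval -0.11 to 0.38, adjusted p = 0.501).

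The Irs1 to Irs2 ratio within a sample does not depend on the scaling of that sample. It was 1.72 ± 0.389 in control hearts (1.32 to 2.25) and 0.894 ± 0.401 in PAMH hearts (0.468 to 1.27). The PAMH ratios lay below all control ratios, by a mean of 1.05 on the log2 scale, and this pair was put side by side with the separate values known, so no test is given. Without PAMH replicates 4 and 5 the mean log2 difference was -0.53.

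**Figure D2:**
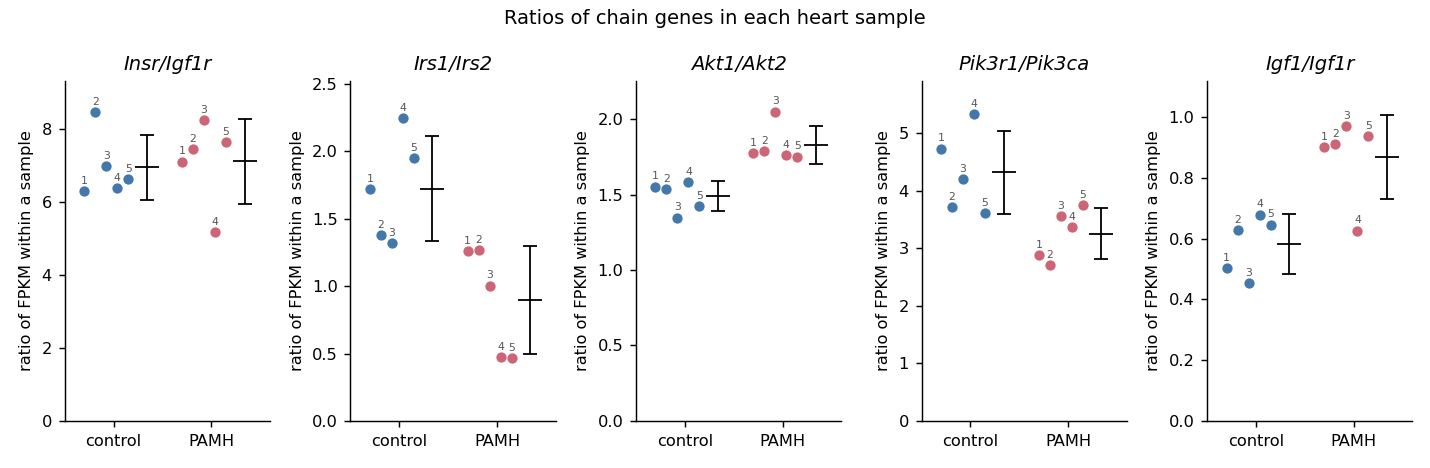
Ratios of FPKM of paired chain genes within each sample (y axis, linear from 0; control blue, PAMH red; replicate numbers beside the points; bar and whiskers are mean and SD, n = 5). The PAMH ratios of Irs1 to Irs2 lie below, and those of Akt1 to Akt2 above, all control ratios, and the other ratios overlap between the groups.

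The promoters of the adaptor pair are shown because Irs2 is a known target of FoxO factors, whose own transcripts are described further on. The 250 bases before each start were read 5′ to 3′ on the gene's strand (RefSeq, GRCm38.p6; 8 of the 9 chain genes matched). Irs1 spans chr1:82291440-82291689 and Irs2 chr8:11008930-11009179, both on the minus strand. Capitals mark the E-box CACGTG and the forkhead motif TTGTTT, searched on both strands.
Irs1: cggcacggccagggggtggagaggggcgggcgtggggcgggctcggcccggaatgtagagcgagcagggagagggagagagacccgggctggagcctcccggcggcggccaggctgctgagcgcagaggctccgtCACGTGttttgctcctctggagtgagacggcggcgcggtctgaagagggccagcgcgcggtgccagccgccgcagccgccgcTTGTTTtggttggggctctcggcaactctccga
Irs2: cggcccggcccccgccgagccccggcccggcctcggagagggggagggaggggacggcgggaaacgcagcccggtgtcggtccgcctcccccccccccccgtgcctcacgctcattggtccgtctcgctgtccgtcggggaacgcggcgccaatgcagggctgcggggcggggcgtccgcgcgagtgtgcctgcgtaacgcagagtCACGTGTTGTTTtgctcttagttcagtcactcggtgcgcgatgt
Both windows are GC-rich (72.4% and 72.8%) and hold 1 E-box and 1 TTGTTT each. In Irs1 the E-box starts 115 bases and TTGTTT 33 bases before the start site. In Irs2 they adjoin, at 44 and 38 bases. Among 32851 RefSeq promoter windows of the same length, 6.02% hold CACGTG and 18.3% hold TTGTTT. Neither window holds the longer FoxO core GTAAACA, which 3.17% of all windows hold. These matches describe letters only.

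Of 11 adaptor genes, 7 were tested and 1 rose, against 4.95% of all tested genes. Another gene of this list is not reported here. Grb2, which links receptors to Ras, rose from 19.1 ± 1.36 to 25.8 ± 4.09 FPKM (log2 fold change 0.40 ± 0.10, adjusted p = 0.0372), with overlapping groups. Its call was lost in 12 of 22 alternatives, among them the omission of any 1 of control replicates 1, 3, 4 and 5 or PAMH replicates 1, 2 and 5 (adjusted p between 0.0650 and 0.0956), median ratio scaling (adjusted p = 0.105) and quantile normalization (adjusted p = 0.0719). Shc1, the other Ras-linked adaptor named, had 3.62 and 3.90 FPKM (adjusted p = 0.527).

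Pik3ca (ENSMUSG00000027665, chr3:32397671-32468486, plus strand) encodes the catalytic p110-alpha subunit. Its values were 2.12, 2.35, 2.22, 2.15 and 2.49 FPKM in control and 3.08, 2.39, 2.70, 1.34 and 2.18 FPKM in PAMH replicates 1 to 5. The PAMH samples spread to both sides of the controls, from replicate 4 at the bottom to replicate 1 at the top. The means were 2.27 ± 0.151 and 2.34 ± 0.654 FPKM (log2 fold change 0.01 ± 0.13, 95% interval -0.27 to 0.28, adjusted p = 0.979), and the sign of this difference depended on the setting.

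Pik3r1 (ENSMUSG00000041417, chr13:101680563-101768217, minus strand) encodes the p85-alpha regulatory subunit, which docks on phosphorylated IRS proteins and holds p110 in check at rest. It had 10.1, 8.76, 9.34, 11.5 and 8.99 FPKM in control and 8.89, 6.44, 9.62, 4.51 and 8.16 FPKM in PAMH replicates 1 to 5. The groups overlapped, since PAMH replicates 1 and 3 lay within the control range. The means were 9.72 ± 1.09 and 7.52 ± 2.06 FPKM (log2 fold change -0.36 ± 0.16, 95% interval -0.71 to -0.02, unadjusted p = 0.0387, adjusted p = 0.183). Without PAMH replicate 4 the log2 fold change was -0.22 (adjusted p = 0.250). The Pik3r1 to Pik3ca ratio was 4.32 ± 0.719 in control and 3.25 ± 0.443 in PAMH hearts, and the groups overlapped.

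Of 8 other PI3K subunit genes, 4 were tested and limma called none, with 0 at an unadjusted p below 0.05, against 24.0% of all tested genes. The catalytic Pik3cb had means of 1.36 and 1.18 FPKM (log2 fold change -0.12, adjusted p = 0.403), and the regulatory Pik3r2 had 3.54 and 3.94 FPKM (0.12, adjusted p = 0.397). Among 21 phosphatases and inhibitors, 14 were tested and limma called none, with 2 at an unadjusted p below 0.05, against the same 24.0%. Grb14, an inhibitor of the insulin receptor kinase, had the smallest p of these. Its means were 13.6 ± 1.34 and 16.9 ± 2.30 FPKM (log2 fold change 0.29, adjusted p = 0.106; 0.37 and adjusted p = 0.0175 without PAMH replicate 3).

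Akt1 (ENSMUSG00000001729, chr12:112653821-112674884, minus strand), a serine kinase of cell growth and survival, was the most abundant chain gene. Its values were 29.3, 35.3, 28.8, 32.5 and 30.1 FPKM in control replicates 1 to 5. In PAMH replicates 1 to 5 they were 37.7, 37.3, 35.3, 44.7 and 37.6 FPKM. The PAMH samples were higher apart from replicate 3, which was level with control replicate 2, and the highest value was in PAMH replicate 4. The means were 31.2 ± 2.71 and 38.5 ± 3.59 FPKM (log2 fold change 0.29 ± 0.08, 95% interval 0.12 to 0.47), the smallest p in the chain, and the adjusted p of 0.0538 missed the threshold (unadjusted p = 0.00359).

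The Akt1 adjusted p ran from 0.0164 to 0.159 over 22 alternatives, of which 5 put it past the threshold. They were a filter at a mean of 5 FPKM (0.0352), sample weights (0.0164), omission of control replicate 2 (0.0392) or PAMH replicate 3 (0.0297), and removal of the length and GC trend (0.0250). The Akt1 log2 fold change was positive in all 22 alternatives, between 0.16 and 0.34. The genes whose standardized values came nearest to those of Akt1 over the 10 samples were Ttc17, Katnal1 and Lta4h, with root mean square differences of 0.199, 0.223 and 0.228 SD units.

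Akt2 (ENSMUSG00000004056, chr7:27591552-27640826, plus strand), the isoform most tied to insulin-stimulated glucose uptake, showed no such difference in means. It had 18.9, 23.0, 21.4, 20.6 and 21.2 FPKM in control and 21.2, 20.8, 17.2, 25.4 and 21.5 FPKM in PAMH replicates 1 to 5. The groups overlapped, with PAMH replicates 3 and 4 at the 2 ends. The means were 21.0 ± 1.49 and 21.2 ± 2.89 FPKM (log2 fold change 0.01 ± 0.09, 95% interval -0.20 to 0.21, adjusted p = 0.973), with a sign that depended on the setting. The pseudogene Akt2-ps shares 4.01% of the 100-base stretches of Akt2, at a mean of 2.39 FPKM. The Akt1 to Akt2 ratio was 1.49 ± 0.0989 in control hearts (1.35 to 1.58) and 1.83 ± 0.126 in PAMH hearts (1.75 to 2.05). Every PAMH ratio was above every control ratio, by a mean of 0.29 on the log2 scale, again as a description.

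**Figure D3:**
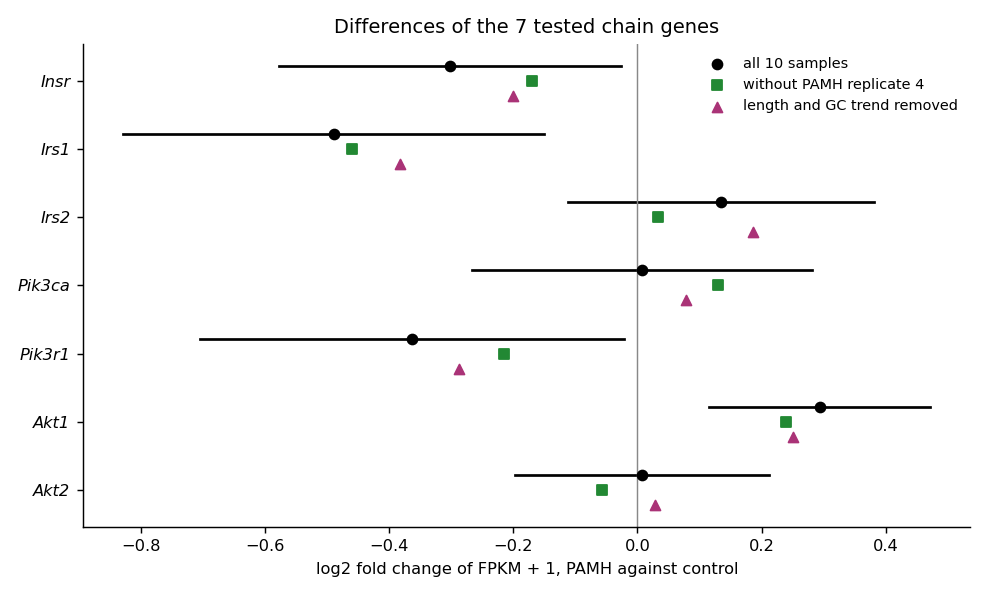
Log2 fold change of FPKM + 1, PAMH against control (x axis), of the 7 tested chain genes: black points with 95% intervals from limma use all 10 samples, green squares leave out PAMH replicate 4, and purple triangles have each sample's length and GC trend removed. Without PAMH replicate 4, Insr moves from -0.30 to -0.17 and Pik3r1 from -0.36 to -0.22, while Akt1 lies between 0.24 and 0.29 in all 3 fits.

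The Akt1 promoter is shown for the same motifs. The window before the 5′-most RefSeq start is chr12:112674885-112675134 on the minus strand, and capitals mark the FoxO core (GTAAACA, or TGTTTAC on the other strand) and the forkhead motif (TTGTTT or AAACAA).
Akt1: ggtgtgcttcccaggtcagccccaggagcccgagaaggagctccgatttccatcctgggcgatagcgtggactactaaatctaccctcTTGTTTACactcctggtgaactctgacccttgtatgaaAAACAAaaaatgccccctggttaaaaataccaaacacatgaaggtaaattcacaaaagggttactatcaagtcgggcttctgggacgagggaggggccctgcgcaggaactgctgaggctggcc
This window has a GC content of 52.0%. It holds 1 FoxO core, starting 161 bases before the start site, which overlaps one of its 2 forkhead motifs. Among the 13 windows of the chain genes it was the only one with the FoxO core, which 3.17% of all windows hold. These matches, too, describe letters only. A second Akt1 window, chr12:112674277-112674526, has a GC content of 78.4%, holds neither motif and has 4 GC boxes (GGGCGG, held by 32.7% of windows).

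Of 13 kinases and partners of the Akt and mTOR branch, 11 were tested and 1 rose, against 4.95% of all tested genes. Mapkap1 (SIN1, a subunit of the mTORC2 complex that phosphorylates Akt) rose from 5.93 ± 0.543 to 8.93 ± 1.18 FPKM. All PAMH samples, at 7.48 to 10.2 FPKM, were above all controls, at 5.33 to 6.73 (log2 fold change 0.51 ± 0.09, adjusted p = 0.00942). Mtor, the kinase itself, had 3.58 ± 0.353 and 4.29 ± 0.446 FPKM (0.21, adjusted p = 0.145), and Mlst8, a subunit of both mTOR complexes, had 1.67 and 1.32 FPKM (-0.21, adjusted p = 0.275).

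Among 22 substrates and effectors, 21 were tested and 2 fell, against 1.24% of all tested genes. Both are genes of FoxO factors that Akt phosphorylates. Foxo1 fell from 2.45 ± 0.233 to 1.75 ± 0.151 FPKM (log2 fold change -0.32, adjusted p = 0.0222) and Foxo3 fell by 0.46 on the log2 scale, to 7.73 ± 0.832 FPKM (adjusted p = 0.0126). In both, the groups did not overlap. The list holds other FoxO genes that did not fall in this way. Foxo4 had 11.2 ± 0.410 and 10.9 ± 0.852 FPKM (log2 fold change -0.03, adjusted p = 0.802). Foxo6, below the expression filter, had 0.425 ± 0.166 and 0.744 ± 0.233 FPKM. The Foxo1 call was lost in 7 of 21 alternatives, among them those without control replicate 3 (adjusted p = 0.0589), control replicate 5 (0.0532), PAMH replicate 5 (0.0538) or PAMH replicates 4 and 5 together (0.0716), with the length and GC trend removed (0.0836), and when samples were rescaled to the same FPKM sum (0.0525). The Foxo3 call was lost in 1 alternative, also without PAMH replicates 4 and 5 (adjusted p = 0.0512). Slc2a1, the basal glucose transporter GLUT1, had 2.34 ± 0.202 and 3.12 ± 0.396 FPKM (0.30, adjusted p = 0.0504), with PAMH above all controls; without PAMH replicate 3 its adjusted p was 0.0257.

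The FoxO target list, composed with earlier results of these data known and so no independent evidence of its direction, had 20 genes. Of 18 tested, 8 fell, 1 rose and 9 did not pass, while of all tested genes 1.24% fell and 4.95% rose. The median log2 fold change of the list was -0.27, against 0.07 over all tested genes. The 8 were Pdk4 (a brake on pyruvate oxidation), Txnip (an inhibitor of glucose uptake), Cdkn1a (a cell cycle inhibitor), the muscle ubiquitin ligases Fbxo32 and Trim63, Sesn1 (an inhibitor of mTORC1), Ccng2 (a cyclin of arrested cells) and Gabarapl1 (an autophagy protein). Pdk4 had 137 to 323 FPKM in control and 17.9 to 40.4 in PAMH samples (log2 fold change -2.88, adjusted p = 0.000115). Trim63 fell by 0.47 and Fbxo32 by 0.53 on the log2 scale (adjusted p = 0.00771 and 0.0106). Bnip3, a mitophagy receptor, rose from 60.6 to 90.1 FPKM (0.55, adjusted p = 0.0214), a call lost in 6 of 22 alternatives, among them quantile normalization (adjusted p = 0.125), no filter (0.0789) and those without control replicate 3, PAMH replicate 1 or PAMH replicate 5 (0.0618, 0.0595 and 0.0552). Over the alternatives 5 to 9 of the list fell and 0 to 2 rose. Sesn1 lost its call without any 1 of control replicates 1, 3, 4 and 5 (adjusted p 0.0501 to 0.0551), and Ccng2 without those or PAMH replicate 1 (0.0503 to 0.0715). With no filter, Sesn1, Ccng2 and Cdkn1a lost theirs (0.0625, 0.0693 and 0.0616).

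**Figure D4:**
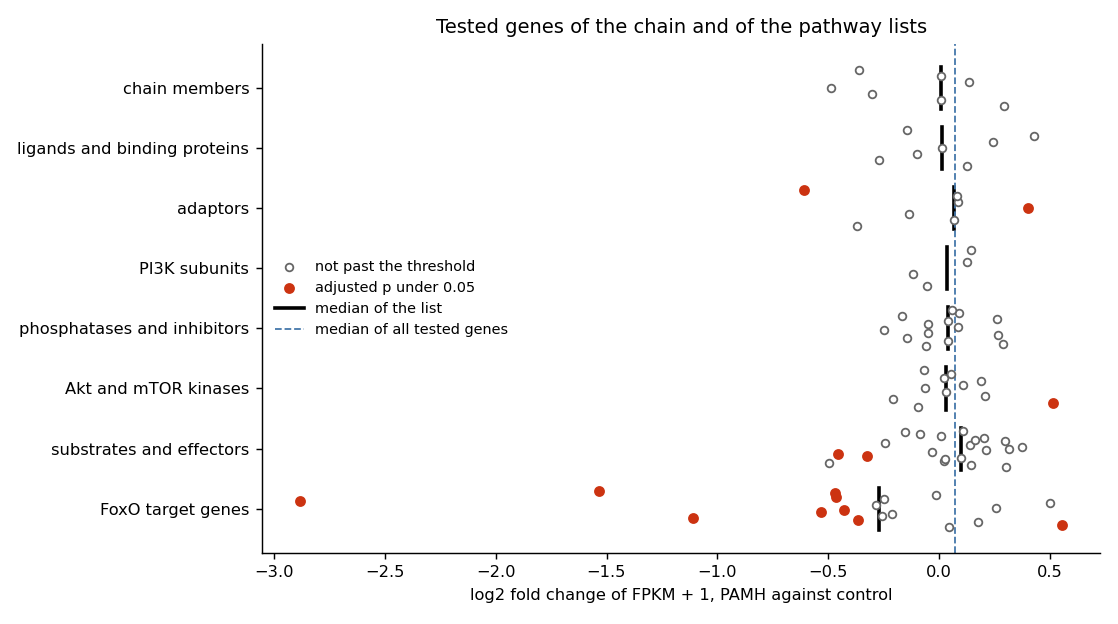
Log2 fold change of FPKM + 1, PAMH against control, of each tested gene in the chain and in 7 lists of its pathway; filled points are genes past the adjusted p threshold of 0.05, open points are not, the black bar in each row is the list's median, and the dashed line is the median of all tested genes. Filled points in the FoxO target list lie mostly below 0, and the chain row has none.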

How the data were processed

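The authors deposited 1 table of FPKM for 10 samples. Tools named in the submitters' processing notes were HISAT2 2.2.1, HTSeq 0.13.5, DESeq2 1.18.1 (R 3.4.1), Trimmomatic 0.38 and FastQC 0.11.9, with build mm10. What tool, annotation and strand setting lie behind the FPKM is not given in the sources used here. Columns were matched to samples through the labels' descriptions. Of 15768 genes with several annotated transcripts, 97.3% carried more than 6 decimals, against 0.612% of 10946 genes with 1, so gene values had been built from several transcripts. Low values of the latter genes, multiplied by length, clustered on multiples of 1 spacing per sample, from which relative depth was taken. Only 10.8% to 26.0% were whole multiples (within 0.01 of a spacing), so whole reads were not recovered and absolute depth is unknown.

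GENCODE vM21 matched 55154 identifiers and not 181. The 9439 genes averaging 1 FPKM or more were fitted as log2(FPKM + 1), which understates changes of low genes, with limma 3.58.1 in R 4.3.3 (group term, intensity trend, 2-sided). Errors are SD unless marked SE. The chain and the lists were chosen with earlier results of these data known. Named were all chain genes, every list gene past the threshold, and genes of smallest p up to 3 per list; 1 gene so named is not reported here. On data simulated for this comparison with 9439 genes, 98% of 100 genes changed by 1 and 76% of 100 changed by 0.5 (log2) were recovered, and 10 of 184 calls were false. The simulated noise was normal, independent between genes and samples, and of the same SD in both groups. Deviations shared by many genes of a sample, as in PAMH replicate 4, were not simulated, so these shares may not hold for the real samples. Alternatives were another pseudocount (0.1), filters, scalings, robust empirical Bayes, sample weights, a replicate block and omission of samples. Removal of the length and GC trend (loess, span 0.5) was added after the data were seen.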

Additional observations from a re-analysis of the deposited data

Results flagged for a closer look

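In groups of 5 samples, single samples far from the other 4 were sought among 36 genes in both groups, 72 groups in all (a gap to the nearest sample above 0.71 of the group's range). Chance alone marks about 1 in 20 groups, and 4 were marked here. Akt1 was at 44.7 FPKM in PAMH replicate 4, above 35.3 to 37.7 in the other PAMH samples. Fbxo32 was at 8.36 FPKM in the same sample, below 11.1 to 11.8 in the others. Igfbp6 was at 7.36 FPKM in control replicate 4, against 9.95 to 10.9 in the other controls. Trib1 was at 3.23 FPKM in PAMH replicate 1, against 2.57 to 2.71 in the other PAMH samples.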

How the results depend on the processing

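Of all tested genes 584 were called, 467 higher and 117 lower in PAMH. The count was 264 without a filter, 1214 with sample weights, 357 without PAMH replicates 4 and 5, 880 with the length and GC trend removed, and 274 to 1126 when single samples were left out, lowest without control replicate 3 and highest without PAMH replicate 3. Median ratio scaling gave 215 higher and 190 lower, and quantile normalization 234 and 246. The median log2 fold change of all genes was 0.07, 0.11 with the same FPKM sum and 0.01 with median ratio scaling. Of the chain genes, 0 were called, and 1 (Akt1) with a filter at 5 FPKM, with sample weights or with the length and GC trend removed; the count was 0 to 1 when single samples were left out. Of the pathway genes 14 were called, 9 without a filter and 9 to 19 when single samples were left out. The Insr, Irs1, Irs2, Pik3r1 and Akt1 log2 fold changes kept their sign in every alternative that gave one. The Pik3ca log2 fold change was -0.0045 with a pseudocount of 0.1, -0.0024 with the same sum outside the mitochondrial genome, -0.051 with median ratio scaling, -0.030 with quantile normalization, and -0.071 to 0.13 when single samples were left out. That of Akt2 was -0.0096 with the same sum outside the mitochondrial genome, -0.073 with median ratio scaling, -0.14 with quantile normalization, -0.087 without PAMH replicates 4 and 5, and -0.057 to 0.076 when single samples were left out. The causes of these changes were not tested.

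With the replicate number as a block, 239 of all tested genes, 0 chain genes and 7 pathway genes were called. Calls lost were those of Mapkap1 (adjusted p = 0.0540), Fbxo32 (0.0516), Gabarapl1 (0.0516), Foxo1 (0.0711), Ccng2 (0.0719), Bnip3 (0.0551) and Grb2 (0.0853). Same-numbered samples did not deviate together: the correlations for replicates 1 to 5 were 0.0913, 0.160, -0.0393, -0.195 and -0.0410, and 1 of 5 control and 2 of 5 PAMH samples correlated best with their own number. Whether same-numbered samples share a litter or a batch is not given in the labels and was not tested.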

Other observations

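Some genes of the pathway lists, chosen here after their values were seen, took separate low and high levels that did not follow the groups. Crk, an adaptor of the lists, had 12.5, 11.5, 10.6, 4.20 and 12.0 FPKM in control replicates 1 to 5 and 14.0, 4.49, 4.88, 4.50 and 12.8 FPKM in PAMH replicates 1 to 5. Gsk3b, a kinase that Akt inhibits, had 1.63, 1.29, 4.25, 1.81 and 3.92 FPKM in control and 3.82, 4.52, 1.31, 3.50 and 3.68 FPKM in PAMH replicates 1 to 5. Neither difference passed the test (limma adjusted p = 0.547 for Crk and 0.516 for Gsk3b). Both genes have 5 annotated transcripts. Igfbp4, a binding protein, had its lowest value, 5.88 FPKM, in PAMH replicate 3, and the other 4 PAMH samples had 13.9 to 17.1.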
